A study of Mus musculus with 6 samples.

Results

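The genes of cholesterol synthesis, uptake and efflux were followed in RNA-seq counts of mouse CD49f-positive epidermal cells from skin in which Rnaseh2b had been deleted or left intact. The set was a fixed list of 33 genes out of the 38924 in the count table, each taken by its Ensembl identifier, and all 33 were found. By role these were 18 enzymes of sterol synthesis, 6 genes that control the transcription factor SREBP2, 4 genes of intracellular sterol transport and storage, and 5 genes of the LXR receptors and their targets. The samples fell into 2 groups of 3 libraries each. K14-Cre-positive cells carried floxed Rnaseh2b alleles (flox/flox) and a Cre recombinase driven by the keratin 14 promoter, and K14-Cre-negative cells carried the same flox/flox alleles without Cre. The keratin 14 promoter acts in basal keratinocytes, so cells outside the keratinocyte lineage keep the gene, and Rnaseh2b encodes a subunit of RNase H2, which cuts DNA at ribonucleotides built in by mistake. Keratinocytes were taken from skin suspensions by a flow cytometry sort for CD49f, the integrin alpha 6 by which basal cells attach to the basement membrane. Age, sex and the number of animals are not given in the labels, so whether the libraries came from separate animals is unknown. The p-values below set the group difference against the scatter between these libraries, whatever its source.

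Cells make cholesterol from acetyl-CoA through mevalonate, farnesyl diphosphate, squalene and lanosterol. When sterols run low, SCAP escorts the membrane-bound SREBP2 from the endoplasmic reticulum to the Golgi, where the proteases encoded by Mbtps1 and Mbtps2 release the fragment that switches on the synthesis genes; INSIG proteins hold SCAP back when sterols are plentiful. Sterol excess works through oxysterols and the LXR receptors, which switch on the exporters ABCA1 and ABCG1. In the epidermis, cholesterol is made locally and becomes, with ceramides and fatty acids, part of the lipid barrier of the outer skin.

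Promoters of 5 genes are shown first: 3 synthesis enzymes and Insig1, all with positive fold changes, and Soat1, with a negative one. Sequences came from RefSeq (GRCm38.p6, the same assembly as mm10) and run from 250 bases before the start of the gene to 50 bases after it, 5′ to 3′ on the strand of the gene. Insig1, Sc5d and Msmo1 were taken for the smallest p-values in their role groups, Fdft1 and Abcg1 had no entry, and Hmgcs1 and Soat1 were added after their values had been seen. Capitals mark CCAAT boxes, in either orientation, and the sterol regulatory element TCACNCCAC, a form of the sequence SREBP2 binds. In this order the windows were chr5:28071162-28071461 (plus strand), chr9:42264251-42264550 (minus strand), chr8:64733529-64733828 (minus strand), chr13:119690101-119690400 (plus strand) and chr1:156474279-156474578 (minus strand).
Insig1: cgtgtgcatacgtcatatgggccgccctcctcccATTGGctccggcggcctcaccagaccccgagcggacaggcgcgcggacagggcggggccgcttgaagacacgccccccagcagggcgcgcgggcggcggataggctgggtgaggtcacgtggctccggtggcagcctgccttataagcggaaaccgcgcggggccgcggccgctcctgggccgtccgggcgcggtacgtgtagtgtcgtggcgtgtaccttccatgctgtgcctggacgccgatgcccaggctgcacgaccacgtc
Sc5d: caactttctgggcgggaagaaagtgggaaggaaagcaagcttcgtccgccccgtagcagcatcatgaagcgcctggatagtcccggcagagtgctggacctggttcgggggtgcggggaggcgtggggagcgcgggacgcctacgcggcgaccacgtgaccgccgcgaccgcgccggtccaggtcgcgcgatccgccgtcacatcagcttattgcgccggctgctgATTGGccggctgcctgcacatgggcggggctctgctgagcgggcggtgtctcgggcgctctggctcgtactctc
Msmo1: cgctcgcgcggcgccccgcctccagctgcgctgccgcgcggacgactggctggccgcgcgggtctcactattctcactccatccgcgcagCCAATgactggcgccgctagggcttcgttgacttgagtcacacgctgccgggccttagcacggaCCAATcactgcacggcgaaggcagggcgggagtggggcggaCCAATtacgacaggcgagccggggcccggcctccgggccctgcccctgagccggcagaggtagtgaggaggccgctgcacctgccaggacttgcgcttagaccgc
Hmgcs1: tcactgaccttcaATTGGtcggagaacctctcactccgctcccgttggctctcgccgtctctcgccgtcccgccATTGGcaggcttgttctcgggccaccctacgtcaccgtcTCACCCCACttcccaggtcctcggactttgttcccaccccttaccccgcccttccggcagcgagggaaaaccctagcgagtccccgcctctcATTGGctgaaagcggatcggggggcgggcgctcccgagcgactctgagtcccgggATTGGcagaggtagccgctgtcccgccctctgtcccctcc
Soat1: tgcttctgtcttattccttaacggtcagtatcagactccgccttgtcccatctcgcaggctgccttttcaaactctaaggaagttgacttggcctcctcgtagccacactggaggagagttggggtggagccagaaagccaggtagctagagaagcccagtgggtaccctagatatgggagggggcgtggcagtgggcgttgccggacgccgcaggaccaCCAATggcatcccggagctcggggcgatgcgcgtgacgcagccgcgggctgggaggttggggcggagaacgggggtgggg
Hmgcs1 held 1 TCACNCCAC and 4 CCAAT boxes, Msmo1 held 3 CCAAT boxes, and Insig1, Sc5d and Soat1 held 1 each.

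Of the 33 genes, 27 had a promoter entry, 15 of them synthesis enzymes. There were 32851 entries in all, and a gene counted as holding a motif if any of its entries held it. A CCAAT box (letters CCAAT, both strands) was present in 14 of these 15 synthesis genes (93.3%). The share was 42.4% of 11164 tested genes with an entry and 41.1% of all 27025 genes with one. The exception was Acat2. A GC box (GGGCGG, both strands) was present in 14 of the 15 (93.3%), against 67.0% of the tested genes and 38.2% of all genes. The E-box CACGTG was found in 3 of the 15 (20.0%, against 11.4% and 8.09%), and TCACNCCAC, searched on both strands, in 1 of the 15 (6.67%, against 1.42% and 1.44%). TCACNCCAC shared no letters with a CCAAT box in Hmgcs1. The LXR element known as DR4, searched on both strands as an exact consensus, was in 0 of the 27 genes and in 0.0148% of all genes. These matches describe letters in a short window and were not tested as binding sites.

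Library totals ran from 23186065 to 31718094 counts in Cre-positive and from 22948779 to 25362538 in Cre-negative cells. The deleted gene fell as labelled: Rnaseh2b had 172, 90 and 69 counts in Cre-positive libraries against 543, 504 and 570 counts in Cre-negative ones (log2 fold change -2.34, SE 0.17; adjusted p = 0.0102 by edgeR). The basal keratinocyte genes Krt5 and Krt14 were abundant in all 6 libraries (Krt5 at 7784 to 8196 CPM in Cre-positive and 7656 to 9075 CPM in Cre-negative cells), but the suprabasal gene Krt10 was higher still at 52411 to 67532 CPM (counts scaled to a common library total) in Cre-positive and 40773 to 52900 CPM in Cre-negative cells. Cre-positive replicate 3 stood apart: its counts differed from those of the other Cre-positive libraries with a chi-square of 63.7 and 45.6 per degree of freedom, against 8.70 to 13.7 for every other pair within a group. By Xist and Y-linked counts it was also the only female library among the Cre-positive ones, whereas the Cre-negative replicates were female, male and female, and with sex as a covariate 0 members were called. Fold changes of the genes named below are also given without this library where they differ by more than 1.5 times. Leaving it out raised the number of all genes with an adjusted p under 0.05 by edgeR from 80 to 422. Fibroblast markers were uneven within both groups, with summed levels of 1368, 176 and 226 CPM in Cre-positive and 196, 288 and 811 CPM in Cre-negative replicates 1 to 3, and endothelial markers likewise (1.81 to 22.9 CPM in Cre-positive and 2.65 to 21.2 CPM in Cre-negative libraries); their part in the results was not tested.

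Of the 33 genes, 0 passed the threshold of an adjusted p under 0.05 in the quasi-likelihood test of edgeR, run over 15525 genes, where 0.406% passed as higher and 0.110% as lower. All 33 passed the filter on low counts. At an unadjusted p under 0.05, 14 of the 33 were higher in Cre-positive cells and 2 lower, against 10.3% and 8.48% of all genes tested. DESeq2 called 9 higher and 1 lower (3.60% and 1.86% of all genes), and limma-voom called 0 either way (0.335% and 0.0902%), with 13 higher, against 9.60% of all genes, and 2 lower at an unadjusted p under 0.05. In 15 of the 33 every Cre-positive library lay above every Cre-negative one and in 2 every one lay below, against 14.1% and 13.8% of all genes. In bulk RNA, fewer cells of a type and less RNA per cell cannot be told apart.

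**Figure D1:**
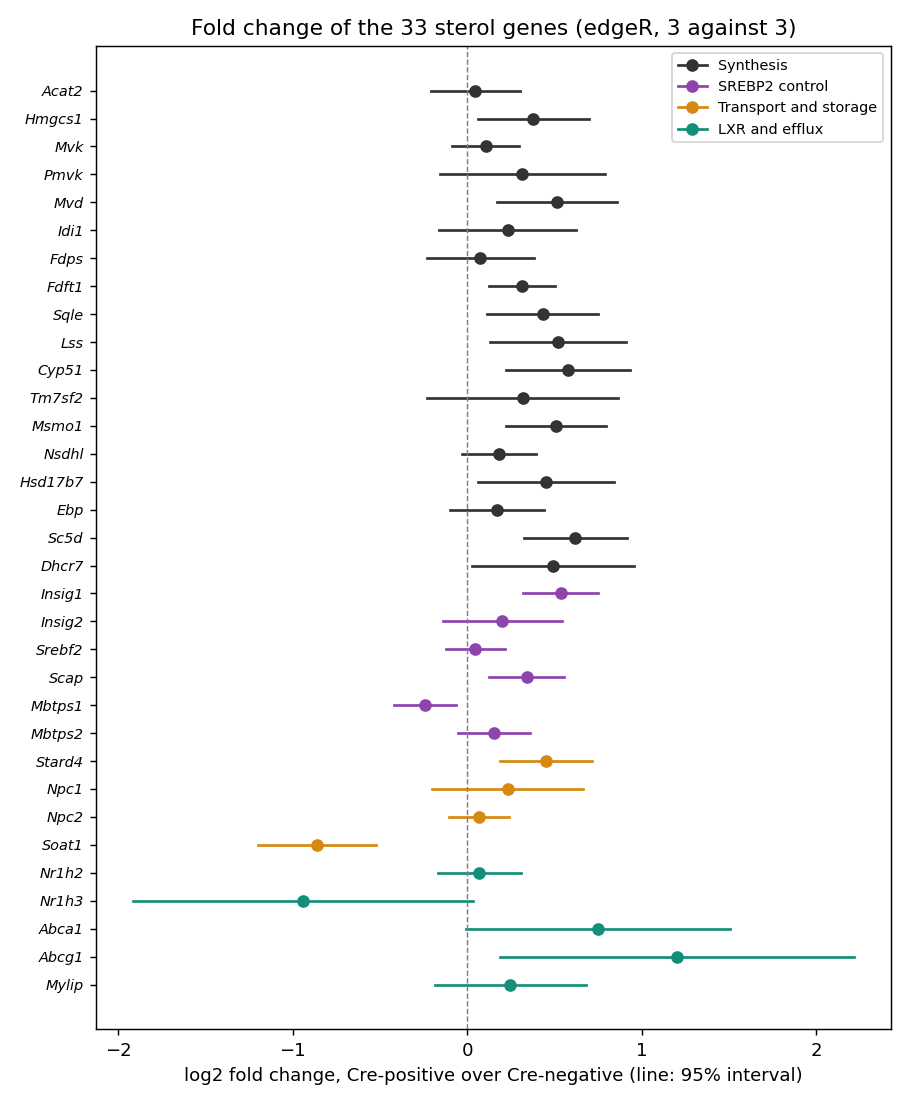
Log2 fold change of each of the 33 genes, Cre-positive over Cre-negative, with its 95% interval from edgeR (horizontal axis), grouped by role from synthesis at the top to LXR and efflux at the bottom. The 18 synthesis enzymes lie between 0.05 and 0.62, Soat1 at -0.86 and Abcg1, with the widest interval among the positive ones, at 1.21.

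The synthesis enzymes had a median log2 fold change of 0.35 against -0.0048 over all genes tested. All 18 values were positive (49.0% of all genes), 15 of 18 under scaling by total count, where Acat2, Mvk and Fdps turned sign and the median of all genes lay at -0.12, and 15 of 18 without Cre-positive replicate 3, where Acat2, Fdps and Tm7sf2 turned. By edgeR 0 of 18 passed the threshold and 10 were higher at an unadjusted p under 0.05, against 10.3% of all genes. DESeq2 called 5 higher (Mvd, Fdft1, Cyp51, Msmo1 and Sc5d), against 3.60% of all genes, and limma-voom 0. The 8 enzymes up to squalene had a median of 0.27 (range 0.05 to 0.52), and the 10 that act on squalene and its products a median of 0.47 (range 0.17 to 0.62). Without Cre-positive replicate 3 the medians were 0.22 for all 18, 0.095 for the 8 and 0.27 for the 10.

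Sc5d, the desaturase that acts on lathosterol late in the pathway, had 76.2, 91.8 and 105 CPM in Cre-positive replicates 1 to 3, against 57.6, 64.3 and 55.4 CPM in Cre-negative ones. The lowest Cre-positive library lay above the highest Cre-negative one, and the means were 90.9 ± 14.3 CPM in Cre-positive and 59.1 ± 4.62 CPM in Cre-negative cells (SD, n = 3 each). Its log2 fold change was 0.62 (SE 0.13, 95% interval 0.33 to 0.92; adjusted p = 0.0878 by edgeR), and 0.51 without Cre-positive replicate 3 (adjusted p = 0.0477 by edgeR). Msmo1, which removes methyl groups from lanosterol-derived sterols, had 98.0, 101 and 127 CPM in Cre-positive against 78.7, 81.9 and 68.7 CPM in Cre-negative cells, again without overlap, and a log2 fold change of 0.51 (SE 0.12; adjusted p = 0.120 by edgeR). Cyp51, the lanosterol demethylase, had 127, 129 and 183 CPM in Cre-positive against 95.7, 106 and 92.6 CPM in Cre-negative cells. Cre-positive replicate 3 was the high one here. The log2 fold change was 0.58 (SE 0.15, adjusted p = 0.141 by edgeR), and 0.38 without that library (adjusted p = 0.0452 by edgeR). Neither Sc5d nor Cyp51 passed the edgeR threshold when any other single library was left out.

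Fdft1, the squalene synthase gene, had 79.997, 87.5 and 92.0 CPM in Cre-positive cells against 74.0, 68.0 and 66.7 CPM in Cre-negative cells. The groups did not overlap, at a log2 fold change of 0.31 (SE 0.08; adjusted p = 0.135 by edgeR). Ctsb on the opposite strand covers 26.8% of its exon length; the library kit kept strand, but whether the counting used it is not stated, so some Fdft1 counts may be Ctsb reads. Mvd, which decarboxylates mevalonate diphosphate, had 61.2, 72.2 and 91.4 CPM in Cre-positive against 54.6, 54.4 and 48.0 CPM in Cre-negative cells. All Cre-positive libraries were above the Cre-negative ones, with a log2 fold change of 0.52 (SE 0.15; adjusted p = 0.157 by edgeR). Sqle, the epoxidase that commits squalene to sterols, had 171, 186 and 242 CPM in Cre-positive against 157, 147 and 140.0 CPM in Cre-negative cells. Its groups were separate too, and its log2 fold change was 0.43 (SE 0.13; adjusted p = 0.179 by edgeR), or 0.27 without Cre-positive replicate 3.

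**Figure D2:**
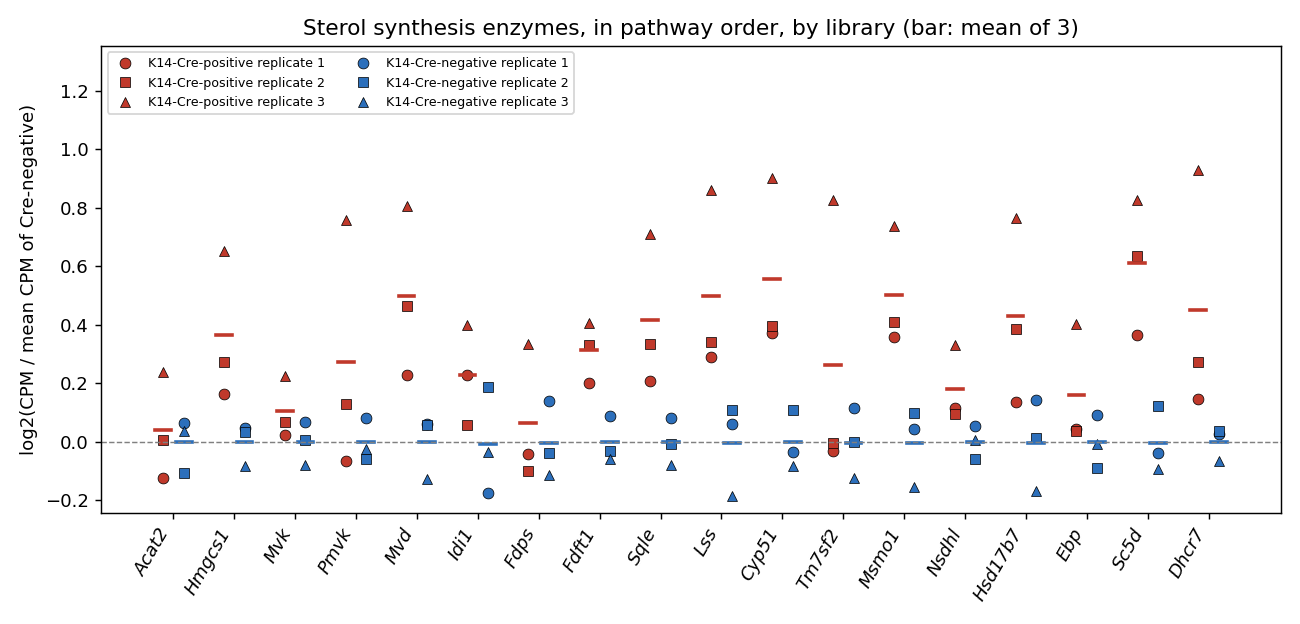
Level of the 18 synthesis enzymes in each library as log2 of CPM over the mean CPM of the Cre-negative group (vertical axis), in pathway order from Acat2 to Dhcr7, Cre-positive in red left of Cre-negative in blue, bars for the mean of 3. Cre-positive replicate 3 (triangle) is the highest of the 6 libraries for all 18 genes, up to 0.93 for Dhcr7, whereas replicates 1 and 2 lie between -0.12 and 0.64.

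The other 12 enzymes ranged from 0.05 to 0.52 on the log2 scale. Among them Lss, which closes the sterol rings, had 0.52 (SE 0.17), Dhcr7, which makes cholesterol from its 7-dehydro precursor, 0.49 (SE 0.20), Hsd17b7, a sterol ketoreductase gene, 0.45 (SE 0.17) and Hmgcs1, the HMG-CoA synthase gene, 0.38 (SE 0.14). Without Cre-positive replicate 3 these were 0.32, 0.21, 0.27 and 0.22. For Hmgcs1, Lss and Dhcr7 the groups did not overlap; for Hsd17b7 they overlapped narrowly, with 118.0 CPM in the lowest Cre-positive library against 118.6 CPM in the highest Cre-negative one. Smaller values belonged to Pmvk, the phosphomevalonate kinase gene (0.32), Tm7sf2, a sterol reductase gene (0.32), Idi1 (0.23), Nsdhl, a sterol dehydrogenase gene (0.18), and Ebp, a sterol isomerase gene (0.17). Without replicate 3 these were 0.033, -0.019, 0.15, 0.10 and 0.040. Vps51 on the same strand covers 15.3% of the exon length of Tm7sf2. The smallest were Mvk, the mevalonate kinase gene, at 0.11 (95% interval -0.09 to 0.30), Fdps, the farnesyl diphosphate synthase gene, at 0.08 (-0.23 to 0.38) and Acat2, the cytosolic thiolase gene, at 0.05 (-0.21 to 0.30). Without replicate 3 they were 0.044, -0.071 and -0.058, and in all 3 the groups overlapped.

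Spread within the groups was unequal. Among the 18 enzymes the coefficient of variation over 3 libraries was 7.03% to 36.4% in Cre-positive and 3.83% to 12.8% in Cre-negative cells, and it was larger in Cre-positive cells for 17 of 18, against 70.4% of the 13880 genes with a mean of at least 1 CPM. Cre-positive replicate 3 was the highest of all 6 libraries for 18 of 18 enzymes, against 30.3% of those genes. Summed over the 18, the level was 1642, 1773 and 2336 CPM in Cre-positive replicates 1 to 3 against 1521, 1484 and 1372 CPM in Cre-negative ones. Replicates 1 and 2 alone also summed to more than any Cre-negative library.

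Per kilobase of exon, Hmgcs1 was the most abundant enzyme, at 115 CPM per kilobase in Cre-positive and 88.4 CPM per kilobase in Cre-negative cells. Pmvk (60.8 and 48.8), Fdps (50.9 and 48.3) and Mvd (42.6 and 29.7) stood below it in Cre-positive cells (CPM per kilobase in Cre-positive and then Cre-negative cells). Idi1, the isopentenyl diphosphate isomerase gene, was the least abundant at 1.43 CPM per kilobase in Cre-positive and 1.21 CPM per kilobase in Cre-negative cells.

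The SREBP2 control genes had a median log2 fold change of 0.18, with 5 positive and 1 negative value. By edgeR 0 of 6 passed the threshold. At an unadjusted p under 0.05, 2 were higher and 1 lower, against 10.3% and 8.48% of all genes. DESeq2 called 2 higher (Insig1 and Scap), against 3.60% of all genes, and limma-voom 0. Insig1, which holds SCAP in the endoplasmic reticulum and is itself a target of SREBP2, had 41.4, 42.4 and 38.7 CPM in Cre-positive libraries against 30.3, 28.9 and 25.3 CPM in Cre-negative ones. The 3 Cre-positive values lay close together, with replicate 3 the lowest of them, and the means were 40.9 ± 1.90 CPM in Cre-positive and 28.2 ± 2.57 CPM in Cre-negative cells (SD, n = 3 each). The fold was 1.45 (95% interval 1.25 to 1.68; adjusted p = 0.0673 by edgeR). Without replicate 3 the log2 fold change was 0.57, against 0.54 with it, and passed the threshold (adjusted p = 0.0262 by edgeR). Insig1 did not pass when any other single library was left out.

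Insig2, its paralog with the same role, had 73.5, 92.5 and 111 CPM in Cre-positive against 81.2, 83.7 and 76.2 CPM in Cre-negative cells. Here the groups overlapped and replicate 3 was the high one, with a log2 fold change of 0.20 (95% interval -0.14 to 0.54; adjusted p = 0.482 by edgeR) that was 0.044 without it. Scap had 133, 137 and 160.5 CPM in Cre-positive against 116, 111 and 112 CPM in Cre-negative cells, without overlap, and a log2 fold change of 0.34 (SE 0.09; adjusted p = 0.143 by edgeR). Srebf2 itself had 313, 332 and 313 CPM in Cre-positive against 305, 313 and 309 CPM in Cre-negative cells. The lowest Cre-positive value (313.326 CPM) barely exceeded the highest Cre-negative one (313.265 CPM), so Srebf2 counts among the genes without overlap by that margin only. Its log2 fold change was 0.05 (95% interval -0.12 to 0.22, adjusted p = 0.753 by edgeR), and the sign turned under scaling by total count (-0.066).

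The proteases that cleave SREBP2 lay on opposite sides. Mbtps1, the site-1 protease gene, had 143, 139 and 132 CPM in Cre-positive libraries against 153, 168 and 168 CPM in Cre-negative ones, all lower, with a log2 fold change of -0.24 (SE 0.08; adjusted p = 0.179 by edgeR). Mbtps2, the site-2 protease gene, had 24.2, 21.6 and 22.1 CPM in Cre-positive against 21.5, 20.7 and 18.8 CPM in Cre-negative cells, with the Cre-positive libraries narrowly above (log2 fold change 0.15, 95% interval -0.05 to 0.36; adjusted p = 0.382 by edgeR). Over the alternatives Mbtps1 ranged from -0.35 to -0.21 and Mbtps2 from 0.043 to 0.20.

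**Figure D3:**
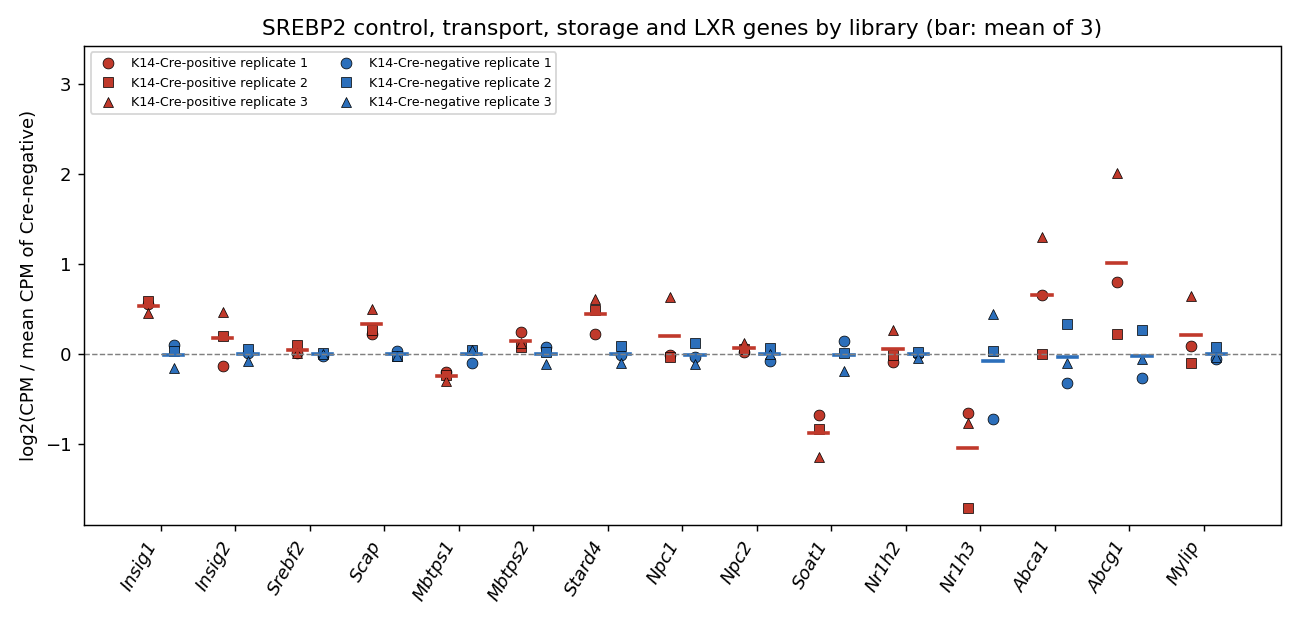
Level of the SREBP2 control, transport and storage, and LXR and efflux genes in each library as log2 of CPM over the mean CPM of the Cre-negative group (vertical axis), Cre-positive in red left of Cre-negative in blue, bars for the mean of 3. Insig1 is at 0.46 to 0.59 in all 3 Cre-positive libraries and Soat1 at -1.14 to -0.67, whereas Abcg1 runs from 0.22 in replicate 2 to 2.01 in replicate 3.

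Of the 4 transport and storage genes, edgeR put 0 past the threshold. Its p before adjustment was under 0.05 for 1 higher gene (Stard4) and 1 lower gene (Soat1), beside 10.3% and 8.48% of all genes. DESeq2 called the same 1 higher and 1 lower, beside 3.60% and 1.86% of all genes, and limma-voom called 0. Soat1, which esterifies cholesterol for storage, had the largest negative value among the genes with more than 1 CPM. It had 15.1, 13.5 and 10.9 CPM in Cre-positive libraries against 26.6, 24.2 and 21.2 CPM in Cre-negative ones. Every Cre-positive value lay well under every Cre-negative one, at 0.550 times the level (95% interval 0.436 to 0.695, log2 fold change -0.86, SE 0.14; adjusted p = 0.0630 by edgeR). Leaving out single libraries gave -0.97 to -0.74, and the value passed the threshold without Cre-positive replicate 3 (adjusted p = 0.0262 by edgeR). It did not pass when any other single library was left out. Markers of sebaceous gland cells, whose lipids include sterol esters, were mixed. Of 8 tested, 6 were negative, 3 of them at an unadjusted p under 0.05 (Cidea at -0.996, Elovl3 at -0.80 and Pparg at -0.66), against 8.48% of all genes. The other 2 were positive (Dgat2l6 at 1.35 and Awat1 at 0.46, or 0.43 and 0.030 without Cre-positive replicate 3). Plin5 was below the count filter. The summed level of the 9 listed was 66.0 to 95.8 CPM in Cre-positive and 85.8 to 96.2 CPM in Cre-negative libraries, with overlap through Cre-positive replicate 3, and their part in the Soat1 difference was not tested.

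Stard4, which carries cholesterol between membranes and is a known SREBP2 target, had 170.2, 204 and 221 CPM in Cre-positive against 145, 155 and 136 CPM in Cre-negative cells. The groups did not overlap (log2 fold change 0.45, SE 0.11; adjusted p = 0.130 by edgeR). Npc1 and Npc2, which together release cholesterol from lysosomes, gave smaller values. For Npc1 the libraries were at 52.5, 51.7 and 82.1 CPM in Cre-positive and 51.7, 57.7 and 49.1 CPM in Cre-negative cells, so that only replicate 3 stood out. The log2 fold change of Npc1 was 0.23 (95% interval -0.20 to 0.66; adjusted p = 0.520 by edgeR) and turned to -0.020 without it. Npc2 had 132, 135 and 141 CPM in Cre-positive against 123, 136 and 129.6 CPM in Cre-negative cells, overlapping, with a log2 fold change of 0.07 (0.041 without replicate 3; 95% interval -0.10 to 0.24; adjusted p = 0.642 by edgeR) that turned to -0.049 under scaling by total count.

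On the LXR side 0 of 5 genes passed by edgeR, and 1 was higher at an unadjusted p under 0.05, against 10.3% of all genes. DESeq2 called 1 higher (Abcg1), against 3.60% of all genes, and limma-voom 0, with 0 at an unadjusted p under 0.05. In none of the 5 were the groups separate. Abcg1, which exports cholesterol to lipoprotein particles, had 15.6, 10.4 and 36.1 CPM in Cre-positive libraries against 7.46, 10.8 and 8.64 CPM in Cre-negative ones. Replicate 3 was far above the rest and replicate 2 inside the Cre-negative range, and the means were 20.7 ± 13.5 CPM in Cre-positive and 8.95 ± 1.67 CPM in Cre-negative cells (SD, n = 3 each). The log2 fold change was 1.21 (SE 0.43, 95% interval 0.19 to 2.22; adjusted p = 0.214 by edgeR), and 0.55 without replicate 3 (adjusted p = 0.216 by edgeR). Abca1, which loads cholesterol onto apolipoproteins, had 41.8, 26.4 and 65.2 CPM in Cre-positive against 21.2, 33.5 and 24.7 CPM in Cre-negative cells. The order of the Cre-positive libraries was that of Abcg1, with a log2 fold change of 0.75 (95% interval -0.01 to 1.51; adjusted p = 0.272 by edgeR) that was 0.37 without replicate 3. Mylip, a ubiquitin ligase that lowers lipoprotein receptors, had 27.9, 24.6 and 41.1 CPM in Cre-positive against 25.2, 27.8 and 25.7 CPM in Cre-negative cells; its log2 fold change of 0.25 (adjusted p = 0.493 by edgeR) was 0.0029 without replicate 3.

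Of the receptors themselves, Nr1h2 (LXR beta) was the abundant one, with 71.9, 75.8 and 92.0 CPM in Cre-positive against 76.5, 77.6 and 74.3 CPM in Cre-negative cells. These overlapped (log2 fold change 0.07, 95% interval -0.17 to 0.31; adjusted p = 0.740 by edgeR), and the sign turned under scaling by total count (-0.054) and without replicate 3 (-0.044). Nr1h3 (LXR alpha) was near the detection limit, with 0.461, 0.221 and 0.428 CPM in Cre-positive against 0.441, 0.739 and 0.989 CPM in Cre-negative cells, where 3 counts correspond to 0.0922 to 0.143 CPM. Its log2 fold change was -0.94 (95% interval -1.92 to 0.04; adjusted p = 0.280 by edgeR). Macrophages, which use ABCA1 and ABCG1, were marked by 8 genes. Of these, 7 were positive, against 49.0% of all genes, and 6 were higher at an unadjusted p under 0.05, against 10.3%. By edgeR 1 passed the threshold (Lyz2, log2 fold change 1.33, adjusted p = 0.0368), against 0.406% of all genes, and by DESeq2 4, against 3.60%. Their summed level was 156 to 198 CPM in Cre-positive and 124 to 138 CPM in Cre-negative libraries. It was lowest among Cre-positive libraries in replicate 3, where Abca1 and Abcg1 were highest, and its part in their values was not tested.

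**Figure D4:**
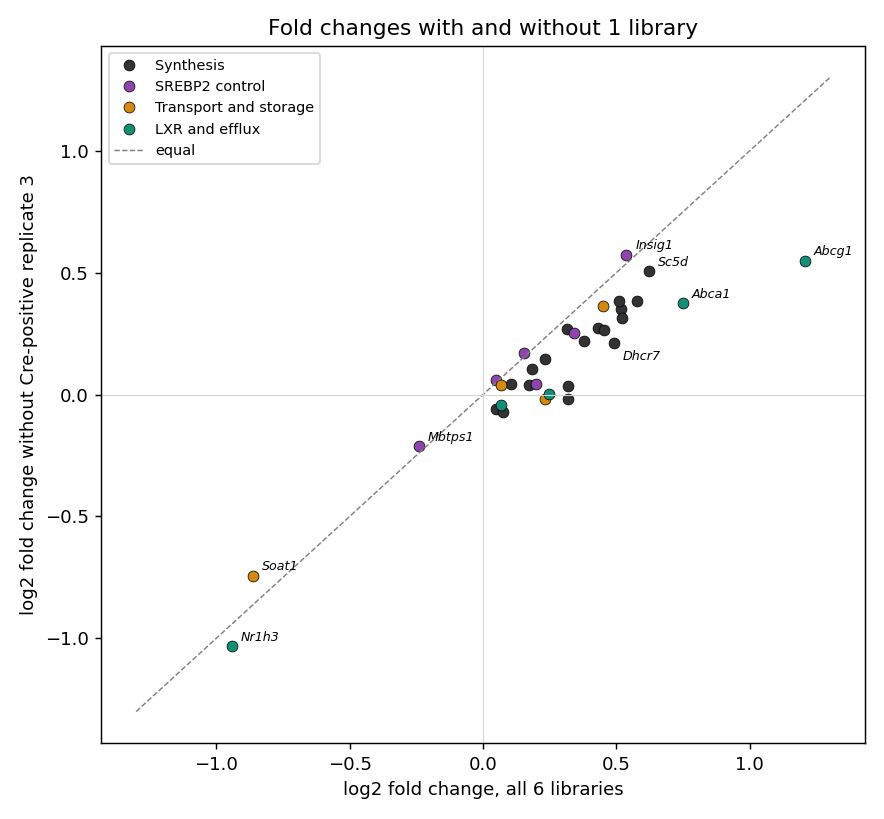
Log2 fold change of each gene with all 6 libraries (horizontal axis) and without Cre-positive replicate 3 (vertical axis), coloured by role, with a dashed line where both are equal. Insig1 (0.54 and 0.57) and Soat1 (-0.86 and -0.74) lie near the line, whereas Abcg1 (1.21 and 0.55), Abca1 (0.75 and 0.37) and Dhcr7 (0.49 and 0.21) lie below it.

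Other genes of sterol metabolism and of linked isoprenoid and fatty acid pathways, taken from 8 lists of 77 genes of which 74 were tested, had a median log2 fold change of 0.063. By edgeR 0 of 74 passed. At an unadjusted p under 0.05, 7 were higher and 3 lower, no larger a share than the 10.3% and 8.48% of all genes tested. The Wald test of DESeq2 called 1 higher (Smpdl3a) and 1 lower (Scd1), no larger a share than the 3.60% and 1.86% of all genes, and limma-voom 0. The values by list are given as a description. At that unadjusted p, isoprenoid branches had 1 higher of 9 (Nus1 at 0.17, which helps make dolichol, beside Pggt1b at 0.15), the ER degradation machinery of sterol proteins 0 of 8 (Erlin2 at 0.13 and Erlin1 at 0.14, the second 0.071 without Cre-positive replicate 3), and sterol transfer at membrane contacts 0 of 13 (Gramd1c at 0.49 and Osbpl1a at 0.32, or 0.18 and 0.16 without that library). Accessory enzymes and acetyl-CoA supply had 1 higher and 2 lower of 10 at that unadjusted p, among them Aacs, which activates acetoacetate for lipid synthesis, at 0.36 (SE 0.12, or 0.22 without that library) and Acat1, the mitochondrial thiolase gene, at -0.36 (SE 0.11). For Acat1 every Cre-positive library (91.4, 99.4 and 74.2 CPM) lay below every Cre-negative one (117, 108 and 115 CPM), whereas its cytosolic counterpart Acat2 overlapped. Uptake and lysosome genes had 1 higher of 10, the lipoprotein receptor gene Lrp8 at 0.42 (SE 0.13), beside the fatty acid receptor gene Cd36 at -0.82 (SE 0.45). Ester, oxysterol and sulfate genes had 0 of 5 tested, with the epidermal cholesterol sulfotransferase gene Sult2b1 at 0.31 (SE 0.17) and Cyp27a1 at 1.07 (SE 0.57), whose libraries were at 1.63, 1.19 and 5.70 CPM in Cre-positive and 1.36, 1.23 and 1.41 CPM in Cre-negative cells. Without Cre-positive replicate 3, Sult2b1 was at 0.098 and Cyp27a1 at 0.089.

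LXR partners and targets had 2 higher of 8 at an unadjusted p under 0.05, against 10.3% of all genes. Smpdl3a, an LXR target in human macrophages, had 40.4, 40.3 and 47.1 CPM in Cre-positive against 25.2, 32.5 and 30.6 CPM in Cre-negative cells. Unlike Abca1, it did not overlap between the groups (log2 fold change 0.53, SE 0.12; adjusted p = 0.106 by edgeR), and the coactivator gene Ncoa1 had 0.19 (SE 0.07). The fatty acid genes of SREBP1 had 2 higher and 1 lower of 11, against 10.3% and 8.48% of all genes, and a median of 0.057. Srebf1, the SREBP1 gene, had 0.28 (SE 0.10, or 0.18 without Cre-positive replicate 3), while Scd1, the stearoyl-CoA desaturase gene, had 135, 137 and 92.3 CPM in Cre-positive against 206, 198 and 149 CPM in Cre-negative cells. Those groups did not overlap (log2 fold change -0.61, SE 0.18, adjusted p = 0.175 by edgeR). Scd1 is known for its high level in sebaceous glands, and the part of sebaceous cells in its value was not tested.

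Markers of suprabasal keratinocytes had the same order of Cre-positive libraries as the synthesis enzymes, an order that some other lists shared and others did not. The 6 genes were all positive, against 49.0% of all genes, though Calml3 was at -0.055 without Cre-positive replicate 3. At an unadjusted p under 0.05, 5 were higher by edgeR and 3 by limma-voom, against 10.3% and 9.60% of all genes. Their summed level was 93747 to 121290 CPM in Cre-positive and 72554 to 93352 CPM in Cre-negative libraries. Relative to the Cre-negative mean, the mean log2 level of these genes was 0.13, 0.34 and 0.77 in Cre-positive replicates 1 to 3, beside 0.15, 0.23 and 0.62 for the synthesis enzymes. Ivl, an envelope protein gene of upper keratinocytes, had 303, 332 and 689 CPM in Cre-positive against 241, 224 and 242 CPM in Cre-negative cells (log2 fold change 0.91, or 0.43 without replicate 3). The same means, in the same order, were 0.12, 0.17 and 0.21 for the SREBP2 control genes and -0.10, -0.075 and 0.060 for transport and storage. They also had this order in sterol transfer at membrane contacts (0.0013, 0.091 and 0.24), ER degradation (0.023, 0.073 and 0.17), LXR partners (0.021, 0.033 and 0.13), isoprenoid branches (-0.0071, -0.0014 and 0.11) and accessory enzymes (-0.12, -0.049 and -0.026). Basal keratinocyte genes were highest in replicate 3 as well (0.053, -0.013 and 0.29), and the SREBP1 fatty acid genes were lowest there (0.047, -0.046 and -0.090). The order did not hold for the LXR and efflux members (0.20, -0.24 and 0.73) or for ester, oxysterol and sulfate genes (0.21, -0.11 and 0.42). Nor did it hold for uptake and lysosome genes (0.056, -0.075 and 0.034) or sebaceous genes (-0.31, -0.35 and 0.011). Without replicate 3 the suprabasal median log2 fold change was 0.27, against 0.37 with it, and the part of suprabasal cells in the synthesis values was not tested. Melanocyte genes were 5 of 5 higher past the threshold by edgeR, against 0.406% of all genes. Their summed level was 586 to 681 CPM in Cre-positive and 331 to 382 CPM in Cre-negative libraries. T cell genes were 4 of 4 negative, where 49.0% of all genes were positive, with a summed level of 5.46 to 6.51 CPM in Cre-positive and 11.1 to 14.8 CPM in Cre-negative libraries. Neither summed level overlapped between the groups, and the part of these cells in the members' values was not tested.

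**Figure D5:**
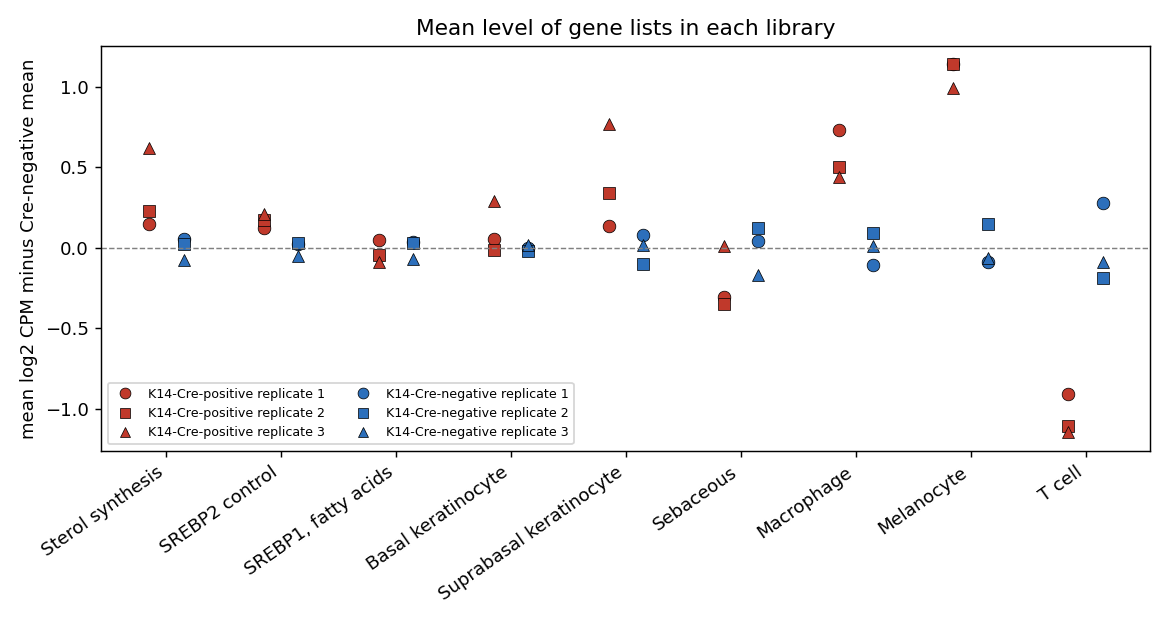
Mean log2 CPM of each gene list minus its mean over the Cre-negative libraries (vertical axis), per library, with Cre-positive in red left of Cre-negative in blue. The synthesis enzymes and the suprabasal genes both have their highest value in Cre-positive replicate 3 (0.62 and 0.77), whereas melanocyte genes are at 0.995 to 1.14 in all 3 Cre-positive libraries.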

How the data were processed

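RNA was sequenced from 6 samples of CD49f-positive epidermal cells using a strand-preserving library kit (per the labels' protocols). The authors deposited whole-number counts per gene, not normalized. GSNAP, featureCounts and mm10 are named in the submitters' processing notes. Their versions, the strand setting and how shared reads were handled: not given in the sources used here. Genes were matched to symbols by identifier (37607 of 38924). Counts were filtered with filterByExpr (minimum count 10, 15525 genes kept), scaled by TMM and compared by edgeR's two-sided quasi-likelihood test (edgeR 4.0.16, R 4.3.3); p-values were adjusted by Benjamini-Hochberg across every tested gene, with 0.05 as the threshold. CPM are edgeR's counts scaled to a common total after TMM, and mean log2 levels used a prior count of 2. Standard errors (SE) and 95% intervals come from the same test. Totals of 22948779 to 31718094 counts make 3 counts worth 0.0922 to 0.143 CPM, counting error only. Tests were first tested on simulated data. Alternatives were DESeq2 1.42.0, limma-voom (limma 3.58.1), DESeq2 size factors, total count scaling, 2 other filters, sex (read from Xist and Y-linked counts) as a covariate, and leaving out each library. Members, lists and tests were chosen with earlier results of these data known. Full values were given for up to 6 genes of each role with the smallest p and for paralog pairs, and 2 genes from each further list were named. Overlapping genes are named if they cover at least 5% of the exon length with a mean of at least 10 counts.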

Additional observations from a re-analysis of the deposited data

How the results depend on the processing

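No paired analysis was possible because the labels give the groups no shared replicate numbers. Of 428 values of single genes under 13 alternatives, 400 kept their direction and their side of the threshold, 16 passed the threshold that had not, and 12 turned sign; the cause was not tested. Under scaling by total count, which moved the median of all genes to -0.12, the values were -0.073 for Acat2, -0.048 for Fdps, -0.012 for Mvk, -0.049 for Npc2, -0.054 for Nr1h2 and -0.066 for Srebf2. Leaving out 1 library gave -0.058 to 0.13 for Acat2, -0.071 to 0.16 for Fdps, -0.020 to 0.35 for Npc1, -0.044 to 0.14 for Nr1h2 and -0.019 to 0.47 for Tm7sf2. The Wald test of DESeq2 called 847 of all genes, 5 synthesis, 2 SREBP2 control, 2 transport and storage, 1 LXR and efflux and 2 other pathway genes, against 80 and 0 in each group by edgeR. With no filter beyond 1 count it was 142 of all genes, 1 SREBP2 control gene (Insig1) and 1 transport and storage gene (Soat1). Over all genes, scaling by total count gave 41 calls and sex as a covariate 42. Leaving out 1 library gave 0 to 422 calls: 25, 7 and 422 without Cre-positive replicate 1, 2 or 3, and 0, 0 and 1 without Cre-negative replicate 1, 2 or 3. Among the members it gave 0 to 2 synthesis, 0 to 1 SREBP2 control and 0 to 1 transport and storage genes, each called without Cre-positive replicate 3. With sex as a covariate, 13 synthesis enzymes were higher at an unadjusted p under 0.05, against 10 without it. Over all 15525 genes that count rose too, to 1903 with the covariate from 1596 without it. With 3 libraries a group, an interval that spans 0 leaves the direction of that gene undetermined.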
